A study of Mus musculus with 6 samples.

Results

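The conventional myosin heavy chain genes of striated muscle and of nonmuscle cells were followed in the mouse ventricle from postnatal day 1 (P1) to postnatal day 14 (P14). They were picked by gene symbol from the 14495 genes of the count table: the striated Myh6, Myh7 and Myh7b and the nonmuscle Myh9, Myh10 and Myh14. All 6 were in the table and all 6 passed the filter on low counts, among 14301 genes tested. Ventricles came from untreated male C57BL/6 mice (C57BL6/J in the extraction protocol), with 3 libraries at P1 and 3 at P14. Hearts were pooled by 3, so that 9 hearts per age gave 3 separate pools, and messenger RNA was captured by its poly(A) tail. By the protocol the atria were removed and the septum was kept, although one label calls the tissue left ventricle. Values are read counts, or CPM, which are counts relative to a library size scaled by the trimmed mean of M-values (TMM).

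Myosin II is a motor built from a pair of heavy chains, each carrying an essential and a regulatory light chain. In cardiomyocytes the heavy chains α (Myh6) and β (Myh7) form the thick filaments that pull on actin, and the α chain hydrolyses ATP and shortens muscle faster than the β chain. In rodents the ventricle replaces β with α after birth, a change known to respond to thyroid hormone. The nonmuscle chains IIA (Myh9), IIB (Myh10) and IIC (Myh14) form small bipolar filaments that act in cell shape, migration, adhesion and the contractile ring of cytokinesis.

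Myh6 and Myh7 lie head to tail on the minus strand of chromosome 14, Myh6 at 54941921 to 54966927 and Myh7 at 54970684 to 54994626 (GRCm38, GENCODE M21), separated by 3756 bases. The 250 bases before a RefSeq start of each are shown because the 2 neighbours changed in opposite directions. Capitals mark matches on either strand to 4 short motifs: the M-CAT motif CATTCC bound by TEAD factors, the nuclear receptor half-site AGGTCA, the TATA motif TATAAA and the E-box CANNTG. Both windows are from RefSeq on GRCm38.p6, minus strand, at chr14:54966608-54966857 for Myh6 and chr14:54994627-54994876 for Myh7.
Myh6: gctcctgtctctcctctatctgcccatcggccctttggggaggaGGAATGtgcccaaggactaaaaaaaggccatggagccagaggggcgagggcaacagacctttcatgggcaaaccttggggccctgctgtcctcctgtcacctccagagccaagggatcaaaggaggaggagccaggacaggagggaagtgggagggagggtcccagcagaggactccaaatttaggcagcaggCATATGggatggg
Myh7: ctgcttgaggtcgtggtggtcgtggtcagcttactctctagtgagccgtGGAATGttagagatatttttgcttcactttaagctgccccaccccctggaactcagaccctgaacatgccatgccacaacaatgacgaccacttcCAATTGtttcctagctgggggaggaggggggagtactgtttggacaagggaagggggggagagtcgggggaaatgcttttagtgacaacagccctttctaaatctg
Each window held 1 M-CAT match in its reverse complement GGAATG, with its first letter 206 bases before the start in Myh6 and 201 bases before it in Myh7, and 1 E-box. Neither window held the half-site or the TATA motif, which holds for these 250 bases and these starts only. The Myh6 window lies wholly within the GENCODE span of Myh6, whereas the Myh7 window begins just outside that of Myh7. Among 32851 RefSeq windows of 250 bases, 12.6% held the M-CAT letters, 14.0% the half-site, 12.4% the TATA letters and 66.2% the E-box. The window before the second RefSeq start of Myh7 held 2 E-boxes and no M-CAT match.

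The 3 striated genes also carry microRNAs in their introns, known together as the myomiRs. They are shown because 2 of their hairpins were counted in these libraries and are described below. Capitals mark the seed, bases 2 to 8, and all 3 sequences are RefSeq mature forms on GRCm38.p6.
miR-208a-3p, in Myh6: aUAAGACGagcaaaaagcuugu
miR-208b-3p, in Myh7: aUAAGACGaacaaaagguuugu
miR-499-5p, in Myh7b: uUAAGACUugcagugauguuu
The miR-208a and miR-208b arms share their seed, and that of miR-499-5p is similar but not identical. They lie at chr14:54949072-54949093 and chr14:54975710-54975731 on the minus strand and chr2:155622893-155622913 on the plus strand, in introns of their hosts. Mir499 itself is not analysed here.

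Total counts ranged from 5916557 to 17353933 per library, and 1 count was worth 0.0463 to 0.168 CPM. The 6 heavy chains together took 0.536% to 0.989% of a library's counts. All 10 cardiomyocyte markers listed were tested and their summed level was 46270 to 55030 CPM at P1 and 70590 to 82640 CPM at P14 (5 rose, 0 fell). With library totals alone 2 of them rose, and without P1 replicate 3 or P14 replicate 2 only 1 did. In whole ventricle, fewer cells of a type and less RNA per cell cannot be told apart. Of the P14 libraries, replicate 1 had the lowest CPM of 6 of 6 heavy chains, and of the P1 libraries, replicate 2 had the lowest CPM of 5 of 6. Each fold was therefore also computed without each library.

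Of the 6 heavy chains, Myh6 and Myh14 rose, Myh7 and Myh10 fell, and Myh7b and Myh9 did not pass the test. Genes are said to rise or fall where the quasi-likelihood test of edgeR, comparing P14 with P1, gave a Benjamini-Hochberg p under 0.05 over all genes. That threshold was passed by 43.8% of all genes tested (21.8% rose and 22.0% fell), and the CPM of the ages did not overlap in 54.8%. Counts called in lists and marker sets are to be read against the 43.8%. The same 4 heavy chains had CPM that did not overlap between the ages. The median log2 fold change was −0.01 over the 6 genes and −0.01 over all genes tested. The 4 calls were also made under each of the 16 alternative settings.

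Myh7, the β chain (ENSMUSG00000053093), was counted at 3805, 1834 and 3897 CPM in P1 replicates 1 to 3 and at 126, 216 and 157 CPM in P14 replicates 1 to 3. The lowest P1 library stood far above the highest P14 library. Its mean went from 3179 ± 1165 to 166 ± 45.9 CPM (SD, n = 3 per age). The log2 fold change was −4.26 ± 0.33 (SE; adjusted p of 7.69e-07 in edgeR). Only 0.51% of all genes tested had a log2 fold change as low or lower. Among the P1 libraries the highest had 2.13 times the level of the lowest, replicate 2.

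Myh6, the α chain (ENSMUSG00000040752), was counted at 2659, 2174 and 3399 CPM at P1 and at 6874, 11057 and 11453 CPM at P14. The ages did not overlap, and P14 replicate 1 lay well below the other 2 libraries of its age. Its mean went from 2744 ± 617 to 9795 ± 2537 CPM (log2 fold change 1.84 ± 0.25, with an adjusted p of 5.83e-05 in edgeR). Myh6 is also the main heavy chain of the atria, and 6 atrial markers were listed: 0 rose, 3 fell, and their summed level was 803 to 1666 CPM at P1 and 441.2 to 592 CPM at P14. Nppa, Myl4 and Bmp10 fell, Bmp10 to 0 in all 3 P14 libraries from 4.42 CPM at P1. Myl7, Sln and Myl1 did not pass, Sln with 9.48 ± 2.79 and 13.96 ± 6.19 CPM and Myl1 with 25.4 ± 2.78 and 24.2 ± 3.50 CPM. Most of the summed level is Nppa, Myl4 and Myl7, and Nppa and Myl4 are also fetal ventricular genes.

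Myh7b, a slow-type heavy chain that hosts miR-499 (ENSMUSG00000074652; chromosome 2, 155611212 to 155634307), did not pass the test. It was counted at 48.3, 29.9 and 25.6 CPM at P1 and at 27.2, 44.2 and 37.1 CPM at P14, with wide overlap. Its log2 fold change was 0.05 ± 0.26 (adjusted p of 0.894 in edgeR), and it lay below 0 under 5 of 16 alternatives. Among the 3 striated genes, then, 1 rose, 1 fell and 1 did not pass.

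**Figure D1:**
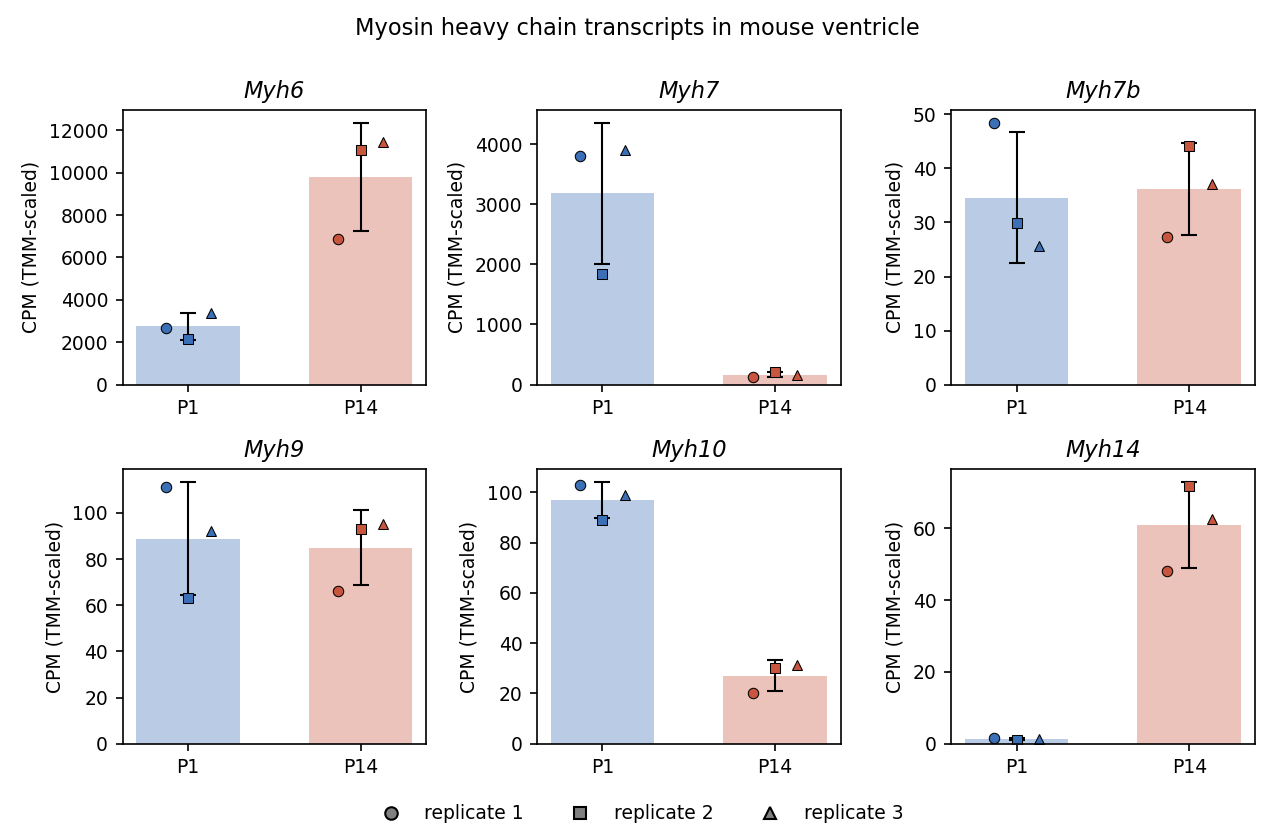
TMM-scaled CPM (vertical axis, linear from 0, a separate scale per gene) of the 6 myosin heavy chain genes at P1 and P14. Bars are means of 3 libraries, error bars SD, symbols the libraries. The ages do not overlap for Myh6, Myh7, Myh10 and Myh14, and overlap for Myh7b and Myh9.

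Ratios within a library do not depend on how libraries are scaled, so the exchange of α for β was also read as a share. Counts were divided by the length of each gene's merged exons (6.726 kb for Myh6 and 8.616 kb for Myh7). On that scale Myh6 made up 47.2%, 60.3% and 52.8% of Myh6 plus Myh7 in P1 replicates 1 to 3 and 98.6%, 98.5% and 98.9% in P14 replicates 1 to 3. At P1 the 2 chains were thus near parity, with the order differing between libraries, and at P14 nearly all reads were those of the α chain. The mean share went from 53.4 ± 6.55% to 98.7 ± 0.233%, and the log2 ratio of Myh6 to Myh7 from 0.20 ± 0.38 to 6.24 ± 0.27 (SD, n = 3). Which chain led at P1 turned on the length used: the mean Myh6 share at P1 was 47.8% per kb of the longest coding transcript and 47.3% in raw counts. In raw counts the libraries held 143, 84.4 and 115 Myh7 reads per 100 Myh6 reads at P1 and 1.83, 1.95 and 1.37 at P14. With 3 libraries against 3, the exact permutation test cannot go below p = 0.10 (two-sided), and that value was reached by 10 of the 11 shares computed (adjusted p = 0.11). That test leaves aside any pairing of libraries by replicate number. An exact test within the 3 pairs taken by number cannot go below p = 0.25, which the same 10 shares reached. Shares of one total depend on each other: the Myh7b and Myh9 shares of all heavy chains fell although neither gene passed the test.

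The 2 cardiac chains are similar enough that short reads can be shared. Of the 36-base windows of Myh6 transcripts, the length of the reads, 26.3% also occurred in Myh7, and 20.4% of Myh7 windows occurred in Myh6. An even split of reads from shared windows would by itself put 15.1 reads in Myh7 for each 100 in Myh6, a calculation that takes no Myh7 transcript to be present. The P14 libraries held 1.37 to 1.95, below that value. The treatment of reads with several matches is unknown from the sources used here. Windows of the other 4 genes were unique in 98.9% (Myh9) to 99.97% (Myh7b).

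The summed level of Myh6 and Myh7 was 6464, 4008 and 7296 CPM at P1 and 7000, 11270 and 11610 CPM at P14, and the ages overlapped. Per kb of exon it was 837, 536 and 958 CPM at P1 and 1037, 1669 and 1721 CPM at P14, where they did not overlap. In counts, set against Mybpc3, the thick filament protein that binds these chains, it was 2.04, 1.74 and 2.66 reads per Mybpc3 read at P1 and 1.60, 2.57 and 2.95 at P14. These ranges overlapped. Against the 10 cardiomyocyte markers together it was 8.66 to 13.3 reads per 100 marker reads at P1 and 8.47 to 16.5 at P14. The make-up of the cardiac heavy chain pool was thus far apart between the ages, while its size overlapped or not by the scale used.

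**Figure D2:**
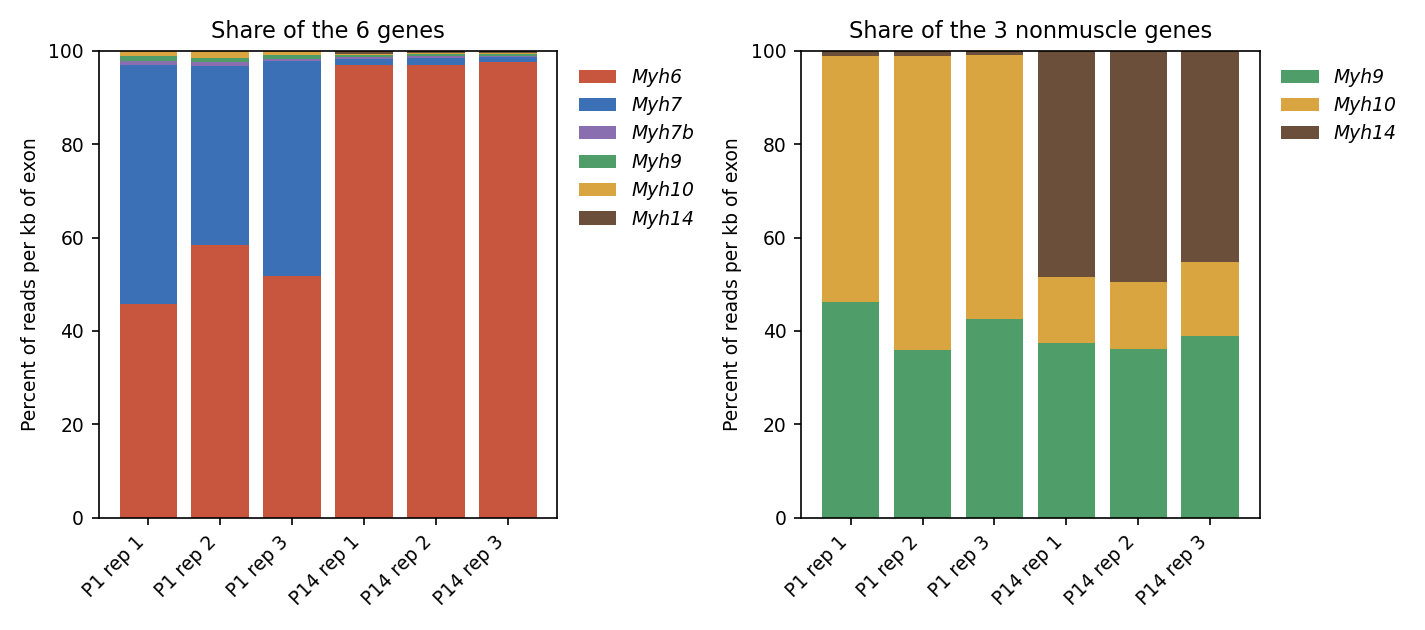
Share of reads per kb of exon (vertical axis, percent) in each of the 6 libraries, left among the 6 heavy chains and right among the 3 nonmuscle chains. Myh6 takes 45.8% to 58.3% of the 6 genes at P1 and 96.9% to 97.6% at P14; Myh14 takes 0.968% to 1.16% of the nonmuscle reads at P1 and 45.3% to 49.5% at P14.

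Transcripts counted at the same locus did not all follow their neighbours. These 3 were chosen after the table was seen. Mhrt, a noncoding RNA antisense to Myh7 (listed as D830015G02RIK; ENSMUSG00000097652; chromosome 14, 54968678 to 54974349, plus strand), was counted at 225, 87.2 and 180 CPM at P1 and at 40.2, 59.7 and 53.8 CPM at P14. It fell by a log2 fold change of −1.68 ± 0.31 (adjusted p of 9.6e-04 in edgeR). Per 1000 Myh7 reads there were 59.3, 47.6 and 46.2 Mhrt reads at P1 and 320, 277 and 343 at P14. Of the Mhrt exon bases, 484 (39.9%) overlap Myh7 exons on the other strand, and the use of strand in counting is unknown from the sources used here. Of the 36-base windows of Mhrt, 30.4% also occurred in Myh7 and 21.3% in Myh6, and 69.4% were unique. Reads of Mhrt, Myh7 and Myh6 can therefore be mixed, and their part in the Mhrt values was not tested.

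The hairpin of miR-208a lies in an intron of Myh6 and that of miR-208b in an intron of Myh7, outside all annotated host exons. Mir208a (ENSMUSG00000065432; chromosome 14, 54949060 to 54949142) had 124, 82 and 35 counts at P1 and 134, 73 and 86 at P14. It rose from 5.47 ± 0.602 to 10.1 ± 0.884 CPM (log2 fold change 0.88 ± 0.25, with an adjusted p of 0.0102 in edgeR), less than its host; with library totals alone that call ended (log2 fold change 0.42, edgeR adjusted p = 0.274). Mir208b (ENSMUSG00000077928; chromosome 14, 54975700 to 54975776) had 7, 17 and 4 counts at P1 and 46, 38 and 47 at P14. It rose by a log2 fold change of 2.85 ± 0.45 (adjusted p of 1.77e-04 in edgeR), while its host Myh7 fell. Per 1000 Myh7 reads the Mir208b row held 0.0851 to 0.54 reads at P1 and 23.4 to 38.6 at P14. All windows of the read length in both hairpins were unique among annotated transcripts. These libraries were selected for poly(A), and whether such reads come from unspliced host RNA, the hairpin or the mature form was not tested. Their strand is also unknown from the sources used here.

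**Figure D3:**
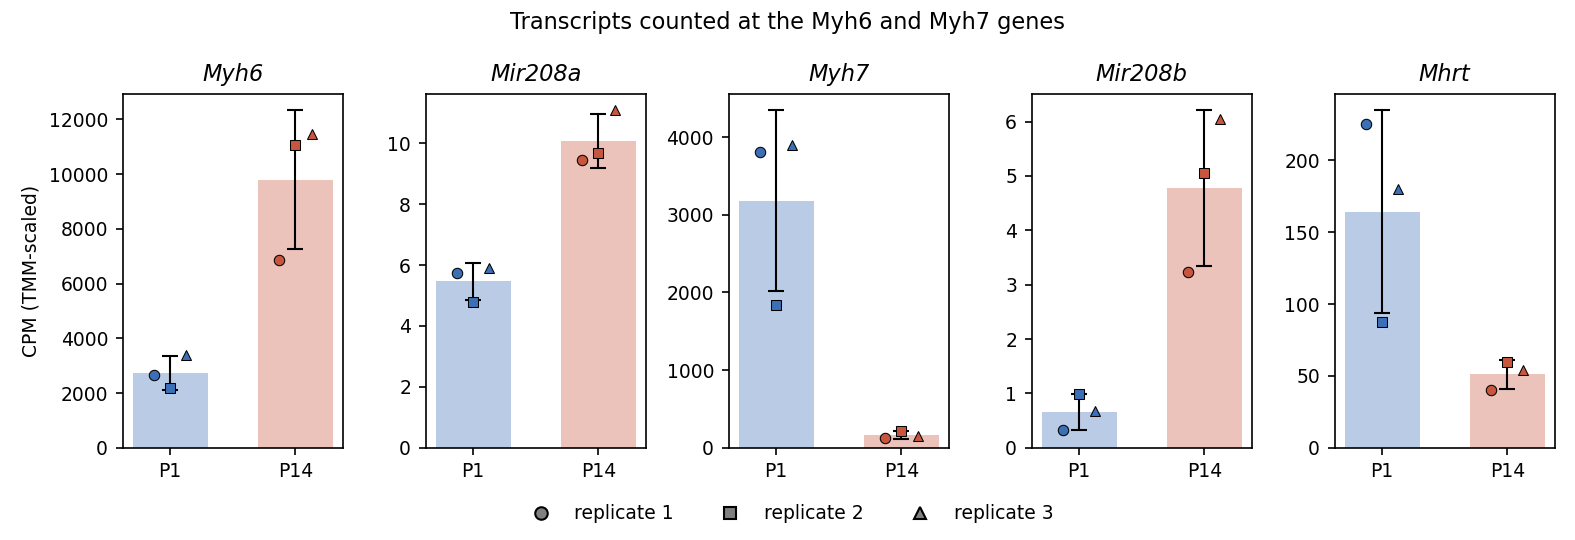
TMM-scaled CPM (vertical axis, linear from 0, a separate scale per panel) of Myh6, Myh7, the hairpins Mir208a and Mir208b in their introns and the antisense Mhrt. Bars are means of 3 libraries, error bars SD, symbols the libraries. Mir208b is higher at P14 in each library (3.24 to 6.05 against 0.324 to 0.991 CPM) while its host Myh7 is lower in each.

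Among the nonmuscle chains 1 rose, 1 fell and 1 did not pass, and their sums overlapped. Myh14 (chain IIC; ENSMUSG00000030739; chromosome 7, 44605803 to 44670843) was counted at 1.57, 1.11 and 1.18 CPM at P1, from 34, 19 and 7 reads, and at 48.2, 71.8 and 62.5 CPM at P14. The ages were far apart in each library. Its log2 fold change of 5.51 ± 0.28 (adjusted p of 1.43e-08 in edgeR) was the largest of the 6 genes, and only 0.112% of all genes tested rose as far or further.

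Myh10 (chain IIB; ENSMUSG00000020900; chromosome 11, 68691559 to 68816632) was counted at 103, 89.2 and 98.8 CPM at P1 and at 19.99, 30.1 and 31.2 CPM at P14. It fell from 97.0 ± 7.01 to 27.1 ± 6.18 CPM (log2 fold change −1.84 ± 0.21, with an adjusted p of 1.25e-05 in edgeR). Its P1 libraries were the most alike of any heavy chain, with a coefficient of variation of 7.23%. Markers of dividing cells moved with it: 8 of 8 fell, and their summed level went from 417 to 456 CPM at P1 to 30.27 to 50.04 CPM at P14. Their part in the change of Myh10 was not tested.

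Myh9 (chain IIA; ENSMUSG00000022443; chromosome 15, 77760587 to 77842175) was counted at 111, 63.0 and 92.3 CPM at P1 and at 66.3, 93.2 and 95.4 CPM at P14, with full overlap. Its log2 fold change was −0.07 ± 0.23 (adjusted p of 0.842 in edgeR) and turned to 0.13 without P1 replicate 1 and 0.09 without P14 replicate 1. Endothelial cells, fibroblasts and leukocytes are rich in IIA. Of 8 endothelial markers 2 rose and 0 fell, with a summed level of 774 to 1024 CPM at P1 and 965 to 1074 CPM at P14. Of 8 fibroblast markers 2 rose and 0 fell, with 1245 to 1742 and 1627 to 2308 CPM. Of 8 leukocyte markers 7 rose and 0 fell, with 69.7 to 84.5 and 256 to 293 CPM. Without P1 replicate 2, 3 endothelial markers rose and 2 fell, and 3 fibroblast markers rose and 1 fell. With library totals alone 1 endothelial marker rose and 4 fell, 1 fibroblast marker rose and 1 fell, and 5 leukocyte markers rose. Their part in the level of Myh9 was not tested.

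Summed, the nonmuscle chains had 216, 153 and 192 CPM at P1 and 134.5, 195 and 189 CPM at P14, which overlap. Per kb of exon, Myh10 held 52.7%, 62.9% and 56.4% of the nonmuscle reads at P1 and 14.0%, 14.4% and 15.7% at P14. Myh14 went from 1.16%, 1.12% and 0.968% to 48.5%, 49.5% and 45.3%. Myh9 held 46.2%, 36.0% and 42.6% at P1 and 37.5%, 36.1% and 39.0% at P14. It was the only one of the 11 shares whose ages overlapped (exact permutation p = 0.40). In these shares IIB led at P1 and IIC at P14, and both leads turned in part on the length used. In P1 replicate 1, Myh9 held 51.6% against 47.7% for Myh10 in raw counts. Per kb of the longest coding transcript these were 52.7% and 46.4%, with P1 means of 48.0% and 51.2%. In raw counts Myh9, not Myh14, had the largest share at P14 (49.2% against 35.2%), as it had per kb of the longest coding transcript (47.1% against 38.6%). The Myh7b share of the 6 genes did not overlap between the ages per kb of exon. It did in raw counts and per kb of the longest coding transcript (exact permutation p = 0.30 each). Among all 6 chains the nonmuscle share was 2.11 ± 0.37% at P1 and 1.19 ± 0.106% at P14.

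**Figure D4:**
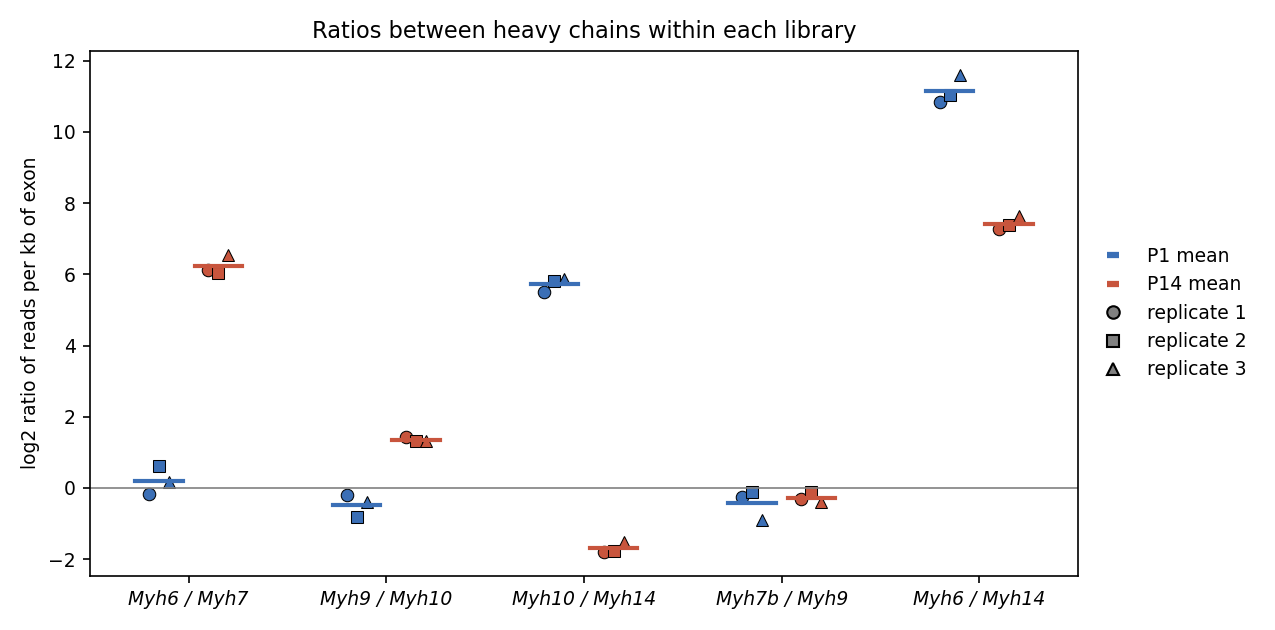
Log2 ratio of reads per kb of exon between pairs of heavy chains (vertical axis) in each library. Symbols are libraries and lines are means of 3. Myh6 over Myh7 goes from near 0 to 6.04 to 6.55, Myh10 over Myh14 goes from above 5 to below −1, and Myh7b over Myh9 overlaps between the ages.

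All 15 pairs of heavy chains were compared by their log2 ratio within libraries. In 14 of 15 the ages did not overlap (exact permutation p = 0.10 each, the smallest that 3 against 3 allows; adjusted p = 0.107), and the exception was Myh7b over Myh9 (exact permutation p = 0.90). Within pairs, 14 of 15 reached the smallest exact p of 0.25. Myh7b and Myh9 are the heavy chains that did not pass the test. Every other ratio held a gene that rose or fell, so both counts largely restate the calls of single genes. How often ratios between other genes separate the ages was not tested. The largest difference was that of Myh7 over Myh14, whose mean went from 10.96 ± 0.50 to 1.19 ± 0.137, an 876-fold change of the ratio. Myh6 over Myh14 went from 11.2 to 7.43, so Myh14 gained on Myh6 although both rose. The log2 ratio of Myh7b to Myh9 was −0.41 ± 0.42 at P1 and −0.28 ± 0.15 at P14.

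Levels per kb give an order of the chains that turned in part on the length used. Per kb of the longest coding transcript, mean Myh7 stood above Myh6 at P1 (510 and 449 CPM per kb). At P14 mean Myh9 stood above Myh14 on that scale (11.4 and 9.36), and both pairs overlapped. Myh9 and Myh7b did not overlap on that scale at either age. The values that follow are per kb of exon. At P1 the order by mean CPM per kb was Myh6 (408 ± 91.7), Myh7 (369 ± 135), Myh10 (9.27 ± 0.67), Myh9 (6.88 ± 1.88), Myh7b (5.22 ± 1.82) and Myh14 (0.177 ± 0.0345). Myh6 and Myh7 overlapped, as did Myh10 with Myh9 and Myh9 with Myh7b, whereas Myh7 stood 39.8-fold above Myh10. At P14 the order was Myh6 (1456 ± 377), Myh7 (19.3 ± 5.33), Myh14 (8.36 ± 1.64), Myh9 (6.57 ± 1.25), Myh7b (5.45 ± 1.29) and Myh10 (2.59 ± 0.591). There Myh14 overlapped with Myh9 and Myh9 with Myh7b. Without overlap, Myh7 still stood 2.31-fold above Myh14, and Myh10 had moved to the last place, below Myh7b.

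Of the other conventional heavy chains listed, 1 of 9 was in the table and the rest are not analysed here. It was Myh11, the smooth muscle chain (ENSMUSG00000018830), which rose from 9.13 ± 2.55 to 46.5 ± 4.198 CPM (log2 fold change 2.32 ± 0.24, with an adjusted p of 4.02e-06 in edgeR). Of 6 smooth muscle markers, Myh11 among them, 4 rose and 2 fell, and their summed level was 1570 to 2513 CPM at P1 and 1260 to 1708 CPM at P14. Most of that sum is Acta2, which fell from 1880 ± 460 to 1129 ± 205 CPM. Cnn1 also fell, whereas Tagln, Smtn and Lmod1 rose beside Myh11. The part of these markers in the change of Myh11 was not tested.

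Light chains partner the heavy chains. Of the 5 muscle light chains 1 rose, 1 fell and 3 did not pass, with a median log2 fold change of −0.07. The share called was 40%, against 43.8% of all genes tested. Myl3, the ventricular essential light chain, rose from 7176 ± 2182 to 20938 ± 2817 CPM, and Myl4, the fetal and atrial essential light chain, fell from 493 ± 202 to 112 ± 27.1 CPM. Myl2, the ventricular regulatory light chain, had 20783 ± 1085 CPM at P1 and 29479 ± 5515 CPM at P14 and did not pass (edgeR adjusted p = 0.065), but passed with DESeq2 (adjusted p = 0.0411) and without P1 replicate 2 (edgeR adjusted p = 0.0336) or P14 replicate 3 (0.0477). Of the 5 light chains of nonmuscle myosin 1 rose, 1 fell and 3 did not pass, again 40% called, with a median of 0.27. Myl9, a regulatory light chain abundant in smooth muscle, fell from 1160 ± 438 to 321 ± 38.1 CPM. Myl6, an essential light chain, rose from 16.4 ± 4.50 to 28.9 ± 4.80 CPM (edgeR adjusted p = 0.0148), a call that ended without P14 replicate 2 (adjusted p = 0.0693) and with library totals alone (0.281). With the replicate number as a block, 2 muscle light chains fell and 2 nonmuscle light chains rose.

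Of 15 tested genes of myosin folding and the thick filament 6 rose, 1 fell and 8 did not pass. Their median log2 fold change was 0.63, and 46.7% were called, against 43.8% of all genes tested. The M-band protein Myom2 rose from 387 ± 41.7 to 1012 ± 143 CPM, Mybpc2, a myosin-binding protein of fast skeletal muscle, from 12.7 ± 3.86 to 27.4 ± 2.45 CPM, and Mybpc3 from 2739 ± 427 to 4233 ± 256 CPM. The fall was that of Trim55, a muscle ring-finger ubiquitin ligase of the sarcomere, from 186 ± 11.0 to 22.4 ± 3.31 CPM (log2 fold change −3.06 ± 0.21). The Mybpc3 call (edgeR adjusted p = 0.0228) ended without P1 replicate 3 (0.0591) or P14 replicate 2 (0.0873). With library totals alone 1 of the list rose and 3 fell, and the calls of Mybpc2 and Mybpc3 ended (edgeR adjusted p = 0.052 and 0.594).

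Of 22 regulators and partners of nonmuscle myosin 5 rose, 4 fell and 13 did not pass, with a median of 0.04. That is 40.9% called, near the 43.8% of all genes tested. The 8 markers of dividing cells, all of which fell, went from a summed 417 to 456 CPM at P1 to 30.27 to 50.04 CPM at P14, and their part in the changes of this list was not tested. Anln, an anillin scaffold of the contractile ring, fell from 42.6 ± 7.22 to 2.79 ± 0.835 CPM. Racgap1, which activates the ring together with Ect2, fell from 88.5 ± 12.9 to 5.03 ± 2.08 CPM. Ect2 fell from 12.1 ± 2.15 CPM to a very low level of 0.488 ± 0.135 CPM (log2 fold change −4.64 ± 0.36). The last was Cit, citron kinase, with a log2 fold change of −0.99 ± 0.30. Rhoa and Svil, which also act in cytokinesis, did not pass (edgeR adjusted p = 0.154 and 0.75). Among the kinases and GTPases, Rhob rose from 34.8 ± 9.11 to 128 ± 24.5 CPM and Rock1, a kinase that activates myosin, from 21.0 ± 9.42 to 63.3 ± 16.2 CPM. Mylk, which encodes the light chain kinase of smooth muscle and nonmuscle cells, rose from 18.2 ± 0.885 to 49.7 ± 8.75 CPM. Rock2 had 68.6 ± 23.8 CPM at P1 and 74.3 ± 13.1 CPM at P14 and did not pass (edgeR adjusted p = 0.74).

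**Figure D5:**
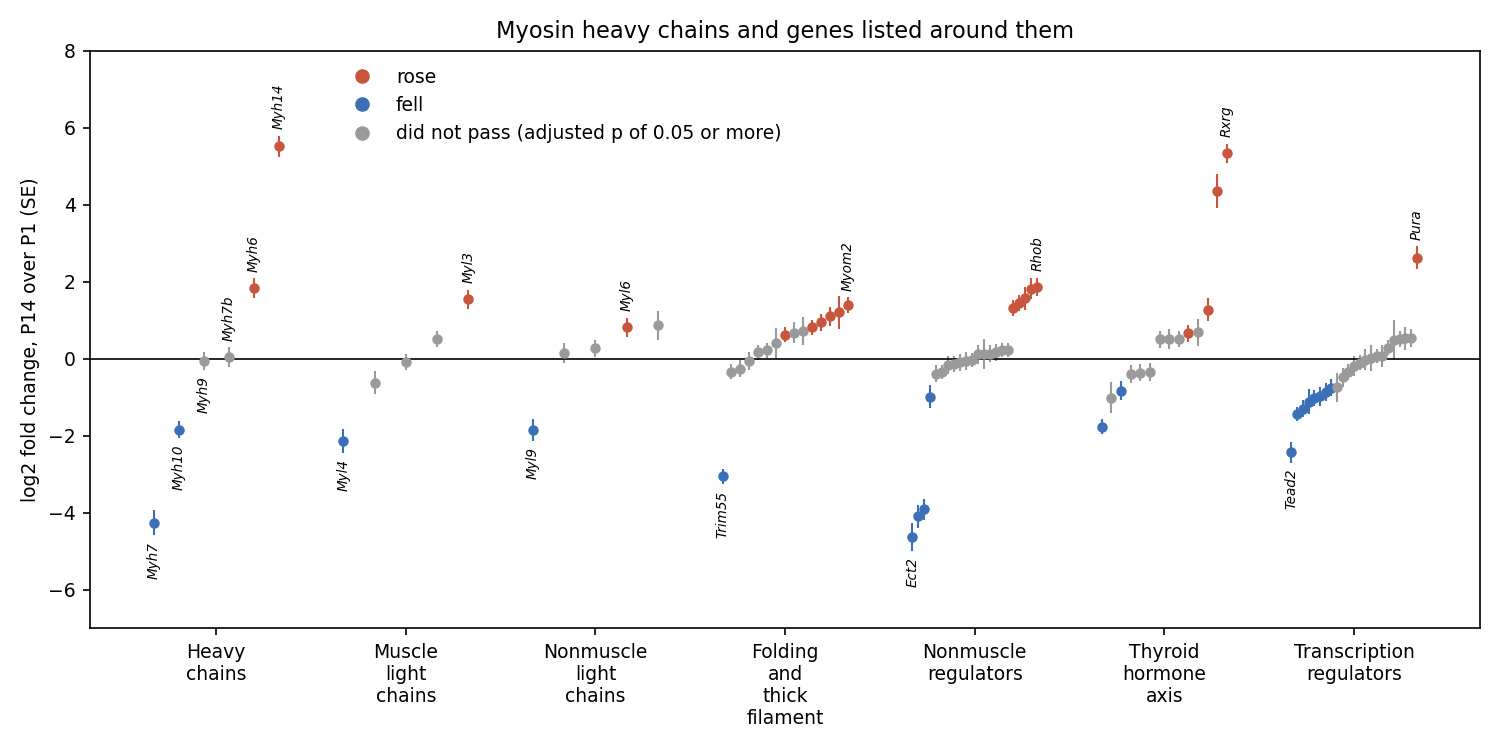
Log2 fold change of P14 over P1 (vertical axis, SE) for the 6 heavy chains and the genes of 6 lists around them, ordered by value within each list. Colours mark genes that rose, fell or did not pass. Myh14 at 5.51 and Rxrg at 5.33 are the highest points, and Ect2 at −4.64 and Myh7 at −4.26 the lowest.

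Of 14 tested genes of the thyroid hormone axis 4 rose, 2 fell and 8 did not pass, with a median log2 fold change of 0.50. The 42.9% called was near the 43.8% of all genes tested. The receptor Thrb rose from 0.529 ± 0.462 to 12.6 ± 3.46 CPM (log2 fold change 4.37 ± 0.44). Its P1 libraries held only 0.370, 1.05 and 0.168 CPM, and 1 count was worth 0.168 CPM in P1 replicate 3. Thra, at 150 ± 42.4 and 118 ± 7.63 CPM, did not pass (edgeR adjusted p = 0.227). It passed as a fall without P1 replicate 2 (edgeR adjusted p = 0.00809) and with library totals alone (0.00788). Rxrg, a retinoid X receptor and possible partner of these receptors, rose from 1.86 ± 0.302 to 77.9 ± 14.4 CPM. Thrap3 fell from 25.4 ± 4.29 to 14.4 ± 3.79 CPM. The Thrap3 call ended without P14 replicate 1 (edgeR adjusted p = 0.0626). Without that library 7 of the list rose and 1 fell, and with the replicate block 7 rose.

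Of 23 tested transcription regulators of the cardiac myosin genes 1 rose, 8 fell and 14 did not pass, with a median of −0.19. Called genes made up 39.1%, against 43.8% of all genes tested. Tead2, of the family that binds the M-CAT motif shown above, fell from 68.3 ± 23.1 to 12.6 ± 0.999 CPM, while Tead1 had 56.5 ± 13.2 and 59.7 ± 23.1 CPM and did not pass (edgeR adjusted p = 0.85). The cardiac factor Gata6 fell from 88.1 ± 3.68 to 32.7 ± 2.63 CPM. Sox6, a known target of miR-499 and the miR-208 family, fell from 17.1 ± 1.80 to 9.34 ± 1.84 CPM. Purb, a single-strand DNA-binding repressor of Myh6, had 80.3 ± 24.8 and 70.7 ± 19.5 CPM and did not pass (edgeR adjusted p = 0.571; 0.0252, as a fall, with library totals alone). Its relative Pura rose from 7.35 ± 2.04 to 45.1 ± 13.0 CPM. With the replicate block 2 of the list rose.

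The genes nearest to each heavy chain in pattern were found by the root mean square difference of log2 CPM, centred per gene, over the 6 libraries, among 8433 genes of at least 10 CPM. Nearest to Myh6 were Pkd1, Acacb and Shank3, at 0.0943, 0.132 and 0.164. Nearest to Myh7 were Bmp7, H19 and Ddc, at larger distances of 0.381, 0.443 and 0.463. Myh10 was nearest to Igf2r, Dyrk2 and Tns3, at 0.129, 0.14 and 0.162. Myh14 was nearest to Art1, Rpl3l and Rxrg, at 0.206, 0.30 and 0.349, the last a gene of the thyroid hormone list. Myh9 was nearest to Cdc42bpb at 0.055, a kinase of nonmuscle myosin from the list above, then to Samd4b and Stk11ip. Myh7b was nearest to Fam160b1, Smn1 and Rps20, at 0.185 to 0.202. All 6 libraries enter each distance, so the age difference and the deviation of single libraries both count.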

How the data were processed

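Messenger RNA of 6 ventricular libraries was sequenced for 36 cycles, per the labels' protocols. The authors deposited whole-number read counts per gene, with no normalisation visible in the values. The submitters' processing notes name GRCm38 (mm10), edgeR 3.2.4 and bedtools, whose roles are unstated; the aligner, the counting program and its use of strand are unknown from the sources used here. No gene in the table totals under 60 counts.

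Counts were tested in R 4.3.3 with edgeR 4.0.16 (filterByExpr at a minimum count of 10, TMM scaling, robust quasi-likelihood F-test of age without other terms, Benjamini-Hochberg adjustment over 14301 genes). limma 3.58.1 and DESeq2 1.42.0 gave alternatives. Standard errors were taken from the coefficient and the F statistic. Shares and ratios use counts per kb of merged GENCODE M21 exons and exact permutation tests (scipy 1.17.1) that reassign all 6 libraries, with an exact test within pairs, added after the data were seen, as an alternative. Replicate numbers were taken to pair the libraries only as an alternative, since the titles give a number and state no pairing. Deviations from the age means correlated at 0.295, 0.112 and 0.102 between libraries of the same number, each above the 0.1 set for pairing. Between libraries of different number they correlated at −0.214 to 0.09, the highest close to the lower values of the same number.

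The members and lists were chosen with earlier results of these data known. By rule the text names all heavy chains, 10 listed genes whatever their result, up to 3 called genes of at least 10 CPM per list with the largest change, up to 2 called against a list's direction, and the 3 genes nearest to each member. Outside it stand Rhoa, Svil and the markers of other cell types and of dividing cells, Cit (the last of 4 falls in its list), and Mhrt, Mir208a and Mir208b, matched by Ensembl identifier. Some genes that the rule names are not reported here. The settings varied were the scaling, the filter, the test, the replicate block, the threshold, each library left out and the length behind a share.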

Additional observations from a re-analysis of the deposited data

How the results depend on the processing

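Over 16 alternatives the log2 fold change was 1.39 to 2.04 for Myh6, −4.70 to −4.07 for Myh7, −2.31 to −1.66 for Myh10 and 5.02 to 5.73 for Myh14. With the replicate number as a block these were 1.82, −4.23, −1.87 and 5.49; the block changed no call of a heavy chain. Myh7b had −0.44 with library totals alone, −0.0124 with upper quartile scaling, and −0.12 to 0.37 with 1 library left out. Myh9 had −0.27 to 0.13 with 1 library left out. Neither passed in any setting. The P14 minus P1 difference in the Myh9 share of the nonmuscle genes was −4.05 points, 2.28 in raw counts and 29.8 without Myh7b and Myh14, where only Myh10 is left beside it.

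With totals alone the median over all genes was −0.47 (against −0.01 with TMM), 1620 genes rose and 5592 fell (22.5% of calls were rises, against 49.7% with TMM). In that setting 2 muscle light chains fell, 0 nonmuscle light chains rose, 1 thick filament gene rose and 3 fell, and 7 nonmuscle regulators and 6 thyroid genes fell. At an adjusted p under 0.01, 2025 genes fell in all, 0 nonmuscle light chains rose and 1 thyroid gene fell. With DESeq2 2 muscle light chains rose. With the block 2 muscle light chains fell, and 2 nonmuscle light chains, 7 thyroid genes and 2 transcription regulators rose. With 1 library left out, 1 to 2 muscle light chains rose and 1 to 2 fell, 0 to 2 nonmuscle light chains rose, 1 to 2 thick filament genes fell, 3 to 7 thyroid genes rose and 1 to 4 fell, and 1 to 3 transcription regulators rose.

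Near 0, signs of uncalled genes turned. Rock2 and Tead1 had −0.37 and −0.41 with totals alone, and Fam160b1 −0.45 there, −0.0331 with upper quartile scaling and −0.0313 with voom; Rps20 had 0.0491 with voom and 0.0565 with the block. With 1 library left out the ranges were −0.097 to 0.4221 for Rock2, −0.1775 to 0.3657 for Tead1, −0.4105 to 0.0931 for Purb, −0.2614 to 0.2424 for Smn1, −0.182 to 0.3754 for Rps20, −0.2628 to 0.1513 for Cdc42bpb, −0.2036 to 0.1378 for Samd4b, −0.3969 to 0.0789 for Stk11ip and −0.1041 to 0.2331 for Fam160b1. The causes of these changes were not tested. Depth limits Myh14 and Mir208b at P1, with 7 to 34 and 4 to 17 counts per library. It also limits Thrb at P1 (0.168 to 1.05 CPM) and Ect2 at P14 (0.398 to 0.644 CPM), as 1 count was worth 0.0463 to 0.168 CPM.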
